A study of Homo sapiens with 36 samples.

Results

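The genes described here are PPARA, CREB3L3, CPT1A, CPT2, ACADVL, ACADM, HADHA and PDK4, 8 genes of fatty acid oxidation and its control by PPAR-alpha, out of 57771 genes in the deposited count table. They were chosen by name, with no measured value in the rule, and each was read from the row of its Ensembl identifier. RNA-seq was made from HepG2-IGF1R-KO, a line of human hepatoma cells that carries a knockout of the insulin-like growth factor 1 receptor gene in all 4 groups, so that added insulin acts on cells meant to lack that receptor. There were 36 libraries, 9 in each of 4 groups, and the comparison asks how these genes respond to insulin in a normal and in an insulin-resistant medium. The first group was insulin-stimulated in normal medium (3 nM human insulin for 18 h) and its control was untreated in normal medium. The third group was stimulated in the same way in insulin-resistant medium, which held 1 nM insulin, palmitic, linoleic and oleic acids at 0.5 mM and 20 mM glucose and was applied for 72 h before the stimulation, and its control was untreated in that medium. Whether the knockout line is 1 clone, and whether the 1 nM insulin was removed before the stimulation, is not given in the sources used here.

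PPAR-alpha, the product of PPARA, is a nuclear receptor that binds fatty acids and, paired with RXR, switches on the genes of fatty acid oxidation in the liver during fasting. Long-chain fatty acids enter mitochondria as carnitine esters through CPT1A, the gate of the pathway at the outer membrane, and CPT2 at the inner membrane, and are then shortened by ACADVL, ACADM and the trifunctional protein, whose alpha subunit is HADHA. CREB3L3 is a liver transcription factor of the fasting response that works with PPAR-alpha, and PDK4 is a mitochondrial kinase that inhibits the pyruvate dehydrogenase complex, and so the making of acetyl-CoA from pyruvate, when fat is burned. Insulin is known for lowering this programme in the liver.

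The promoter windows of 3 members are shown because CREB3L3 and CPT2 had group ranges that did not overlap under insulin and HADHA is the oxidation enzyme used below as a yardstick within each library; the 3 were picked after the values were seen. The sequences are from RefSeq (GRCh38.p14), 250 bases before to 30 bases after the annotated start, on the strand of the gene. CREB3L3 is at chr19:4153381-4153660 on the plus strand, CPT2 at chr1:53196574-53196853 on the plus strand and HADHA at chr2:26244603-26244882 on the minus strand. Capitals mark exact matches to a searched motif.
CREB3L3: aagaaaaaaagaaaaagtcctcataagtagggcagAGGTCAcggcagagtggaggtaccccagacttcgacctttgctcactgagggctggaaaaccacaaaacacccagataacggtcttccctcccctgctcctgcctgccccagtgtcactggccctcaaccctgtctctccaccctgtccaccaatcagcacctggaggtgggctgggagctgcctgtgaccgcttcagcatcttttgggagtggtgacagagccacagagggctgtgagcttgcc
CPT2: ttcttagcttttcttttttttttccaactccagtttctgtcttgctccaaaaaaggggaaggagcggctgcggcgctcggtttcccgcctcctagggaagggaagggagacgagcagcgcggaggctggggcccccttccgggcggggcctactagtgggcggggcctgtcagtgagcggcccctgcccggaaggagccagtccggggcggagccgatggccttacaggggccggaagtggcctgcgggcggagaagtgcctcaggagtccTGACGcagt
HADHA: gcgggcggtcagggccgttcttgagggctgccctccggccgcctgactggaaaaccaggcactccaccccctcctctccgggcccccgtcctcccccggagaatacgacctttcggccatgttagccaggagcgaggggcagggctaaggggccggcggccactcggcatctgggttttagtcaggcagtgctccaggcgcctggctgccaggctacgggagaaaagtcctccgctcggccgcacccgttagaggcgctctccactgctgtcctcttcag
The motifs were searched on both strands in the 10 windows listed for the 8 members, each 250 bases before to 50 after the start. They were the nuclear receptor core AGGTCA, its direct repeat with 1 base between (AGGTCANAGGTCA, which holds the core), the FOXO site TGTTTAC, and the cyclic AMP element TGACGTCA, which holds the shorter core TGACG. The capitals in CREB3L3 are AGGTCA, at position -215 from the start, and 13.8% of 35116 windows of the same length held this motif. The capitals in CPT2 are TGACG, at position 22, a motif held by 24.6% of the windows. The only other match among the 10 windows was TGACG on the minus strand of PDK4, and none held the direct repeat (0.0228% of all windows), the FOXO site (3.42%) or TGACGTCA (1.85%). A match is a run of letters and does not show that a factor binds there, and its absence from this window says nothing about the factor.

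Library totals were 26613311 to 116763869 counts, and levels are given as CPM, a gene's count scaled to a common library total by TMM factors. The labels call the cells hepatocytes, and 22 of 24 hepatocyte markers had a median of at least 1 CPM in 30 libraries, but all 24 markers of stromal cells did so there as well, with a summed level of 39290 to 124300 CPM. The other 6 libraries, replicates 4 to 6 of the insulin-stimulated cells in normal medium and 1 to 3 of the untreated cells in resistant medium, had COL1A1 below 10 CPM, stromal markers summing to 8672 to 12680 CPM, 11 of 24 of them at a median of 1 CPM or more, and DCN, POSTN and TWIST1 at 0, beside 23 of 24 hepatocyte markers at 1 CPM or more. Most of that sum was FN1, at 8408 to 12450 CPM in these 6 libraries, while the median over the 24 stromal markers was 0.0376 to 0.343 CPM. In bulk samples, fewer cells of a type and less RNA per cell cannot be told apart. The calls among the 8 genes are given with and without these 6 libraries, called COL1A1-low; the likeness of profiles is over all 36. Within each group, replicates numbered 1 to 3, 4 to 6 and 7 to 9 also form sets. Libraries of a set deviated together from the mean of all libraries (median r = 0.954 over 36 pairs, against 0.267 over 108 other pairs within groups). Tests over 9 libraries may therefore give p-values that are too small. IGF1R transcripts were at 77.8 to 134 CPM in all libraries, there is no library without the knockout, and counts over the whole gene do not check it.

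Insulin in normal medium was followed by lower levels of 5 of the 8 genes and by a higher level of none that passed the test. The direction of PPARA, CPT1A and ACADM turned under one scaling, given below with its values. CREB3L3 fell most, to a level 0.41 times that of untreated cells, and CPT2, PPARA, CPT1A and ACADM fell to between 0.72 and 0.84 times. ACADVL, HADHA and PDK4 did not pass the test. Among all 17983 genes tested, 10.2% were called lower and 24.9% higher in this comparison, at an adjusted p under 0.05 in edgeR's quasi-likelihood test with a batch term. Of the genes called, 70.9% were higher, against 57.3% with DESeq2 and its size factors. The median log2 fold change was -0.32 over the 8 genes and 0.03 over all genes.

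**Figure D1:**
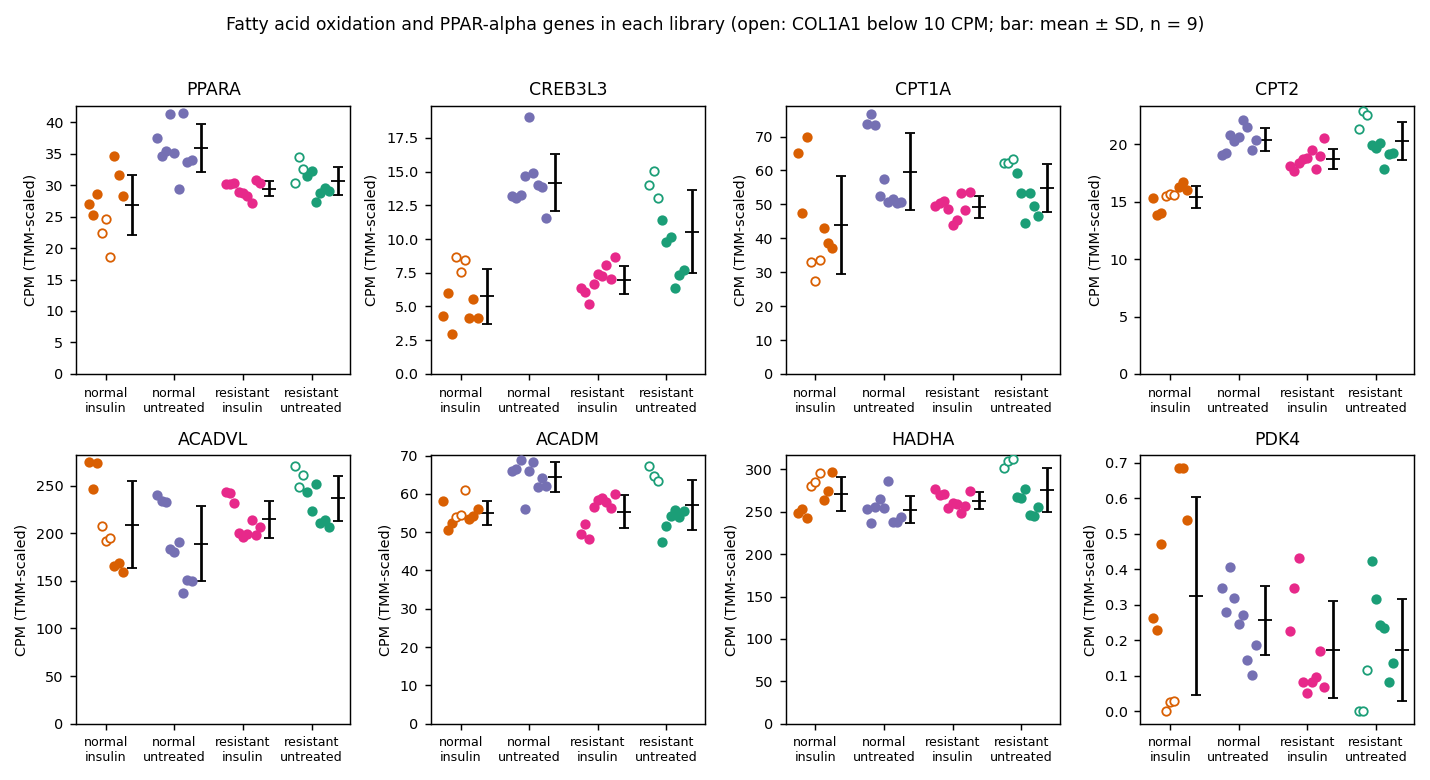
Level of each of the 8 genes in TMM-scaled CPM (y axis, from 0) in the 9 libraries of each of the 4 groups (x axis), with open points for the 6 libraries whose COL1A1 was below 10 CPM and a black bar for the mean ± SD. CPT2 and CREB3L3 of insulin-stimulated cells in normal medium lie below all untreated libraries of that medium, while the points of ACADVL fall in 3 steps within each normal-medium group.

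PPARA itself had a lowest, median and highest level of 18.6, 27.0 and 34.6 CPM in insulin-stimulated cells, against 29.4, 35.2 and 41.5 CPM in untreated cells of the normal medium. The ranges overlapped, and the 3 COL1A1-low libraries were the lowest of the stimulated group, at 18.6 to 24.7 CPM. The log2 fold change of PPARA was -0.43 (SE 0.08, adjusted p = 2.78e-05, edgeR), and -0.42 without the 6 COL1A1-low libraries.

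CREB3L3 had a lowest, median and highest level of 2.98, 5.54 and 8.64 CPM in insulin-stimulated cells, against 11.6, 13.8 and 19.1 CPM in untreated cells. The ranges did not overlap, which among all genes tested was so for 1.81% in the lower direction. The 3 COL1A1-low libraries were the 3 highest of the stimulated group, at 7.57 to 8.64 CPM. The log2 fold change was -1.28 (SE 0.17, adjusted p = 3.42e-07, edgeR), and it was -1.69 (adjusted p = 5.26e-12) without the 6 libraries.

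CPT1A had a lowest, median and highest level of 27.5, 38.7 and 69.7 CPM in insulin-stimulated cells, against 50.5, 52.4 and 76.6 CPM in untreated cells. The groups overlapped, and the sets of 3 replicates were far apart, with set means of 31.3 to 60.7 CPM in stimulated and 51.0 to 74.6 CPM in untreated cells. The log2 fold change was -0.47 (SE 0.13, adjusted p = 0.00497, edgeR), and -0.39 (adjusted p = 0.0256) without the 6 libraries.

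CPT2 was at 13.8 to 16.7 CPM (median 15.6) in insulin-stimulated cells, against 19.1 to 22.2 CPM (median 20.4) in untreated cells, so that every stimulated library lay below every untreated one. Its log2 fold change was -0.40 (SE 0.05, adjusted p = 3.2e-08, edgeR), and -0.52 without the 6 libraries.

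ACADM, the dehydrogenase of medium-chain fatty acids, was at 50.7 to 61.0 CPM (median 54.1) in insulin-stimulated cells, against 55.9 to 69.0 CPM (median 65.9) in untreated cells. The ranges overlapped, and 8 of 9 untreated libraries lay above all stimulated ones. Its log2 fold change was -0.24 (SE 0.05, adjusted p = 0.000348, edgeR), and -0.38 without the 6 libraries.

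ACADVL, the dehydrogenase of very long chains, and HADHA showed no fall. ACADVL was at 159 to 275 CPM (median 195) in insulin-stimulated cells, against 138 to 240 CPM (median 184) in untreated cells, with a log2 fold change of 0.14 (SE 0.11, adjusted p = 0.363, edgeR). The highest set mean of ACADVL was 1.61 times the lowest in each of these groups, a wider gap than the difference between them. With the replicate number as a block over all 36 libraries, ACADVL was called higher (0.16, adjusted p = 0.0403, edgeR), but the numbers are not shown to pair libraries. With sets of 3 summed ACADVL was at 0.02 (adjusted p = 0.984, edgeR). Without the 6 libraries ACADVL was at 0.06 (adjusted p = 0.799). HADHA was at 242 to 296 CPM (median 274) in insulin-stimulated cells, against 237 to 286 CPM (median 254) in untreated cells, with a log2 fold change of 0.11 (SE 0.05, adjusted p = 0.111, edgeR), and -0.04 without the 6 libraries.

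PDK4 was close to absent, with 0 to 44 counts (0 to 0.687 CPM, median 0.263) in insulin-stimulated cells, against 6 to 41 counts (0.103 to 0.406 CPM, median 0.271) in untreated cells. In the 6 COL1A1-low libraries it had 0 to 4 counts, where a count of 0 allows up to 3. Its log2 fold change was 0.41 (SE 0.58, adjusted p = 0.653, edgeR), and 0.79 (SE 0.41, adjusted p = 0.144) without those libraries.

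Without the 6 COL1A1-low libraries the same 5 genes were called lower and none higher, among 18.1% of all genes lower and 15.4% higher. In these 30 libraries the hepatocyte markers moved with them, since 17 of 24 were called lower with a median log2 fold change of -0.38, close to the -0.39 of the 8 genes, while in all 36 libraries their median was 0.00. The stromal markers had a median of -0.59 in all libraries and -0.13 in the 30. They summed to 8987 to 76810 CPM in stimulated cells (43450 to 76810 CPM without the 6 libraries) and 39290 to 111700 CPM in untreated cells. Their part in the result was not tested.

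Scaling each library to 20 hepatocyte genes in place of TMM moved the median of all genes to 0.19. Of the 8 genes CREB3L3 alone was then called, at -1.24 (adjusted p = 2.92e-14), with 5.69% of all genes called lower and 21.5% higher; CPT2 was at -0.26 (adjusted p = 0.174) and PPARA at -0.25. Without the 6 libraries and with this scaling, CREB3L3 stayed lower at -1.23, but CPT2 was at -0.04 and not called (adjusted p = 0.524, edgeR). ACADVL, HADHA (the base of the ratios that follow) and PDK4 were then called higher at 0.55, 0.44 and 1.27. PPARA, CPT1A and ACADM turned to 0.05, 0.10 and 0.10 without a call, and the median of all genes was 0.46. This fit called 11340 of all 18230 genes higher and 998 lower, so calls in the higher direction are not particular to the 8. Ratios within a library do not depend on any scaling, and per 100 HADHA counts CPT2 had 5.26 to 6.18 counts in stimulated against 7.53 to 9.07 in untreated cells, and CREB3L3 had 1.23 to 3.08 against 4.74 to 7.48. Neither pair of ranges overlapped, whereas those of PPARA (6.30 to 13.1 in stimulated against 10.3 to 17.4 in untreated cells), CPT1A and ACADM did. The share of all genes without overlap in such ratios was not computed. HADHA was chosen after the values were seen, and CPT2 and CREB3L3 did not overlap in CPM either, so the ratios are no separate support.

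The response was also read within each batch date of the labels. In the batch of 22 April CREB3L3 (-1.57), CPT2 (-0.47) and ACADM (-0.35) were called lower, among 393 of 17272 genes lower and 119 higher. In that of 24 May CREB3L3 (-1.18) and CPT2 (-0.55) were, among 1232 of 18705 genes lower and 2028 higher. In the batch of 11 April, with 2 libraries in each of these groups, none was called, with CREB3L3 at -1.10 and CPT2 at -0.46 (adjusted p = 0.837 for both, edgeR). With each set of 3 summed to 1 sample, PPARA (-0.55), CPT2 (-0.53) and CREB3L3 (-1.40) were called and CPT1A and ACADM were not (adjusted p = 0.188 and 0.0639, edgeR). Of all 20446 genes tested there, 351 were called lower and 360 higher.

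**Figure D2:**
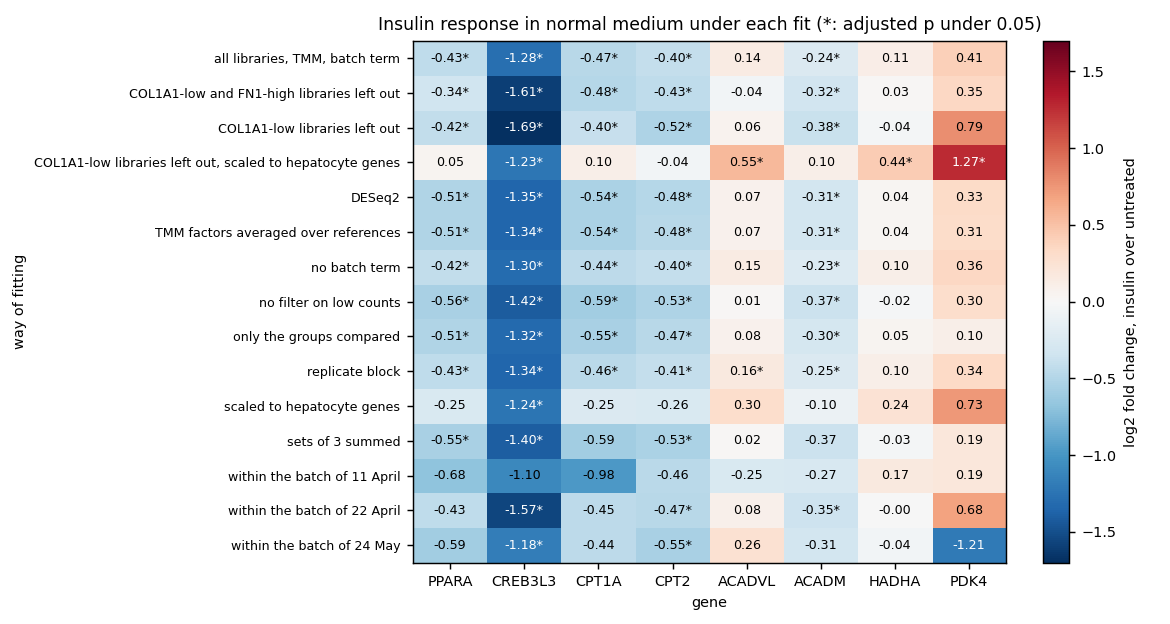
Log2 fold change of each gene (columns) between insulin-stimulated and untreated cells in normal medium under each way of fitting (rows), with colour from blue (lower with insulin) to red (higher) and a star at an adjusted p under 0.05. CREB3L3 is lower in every row and starred in all but the batch of 11 April, and the CPT2, PPARA, CPT1A and ACADM columns lose their stars where libraries are scaled to hepatocyte genes. The 11 April fit called 0 of 17208 genes.

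Insulin in the insulin-resistant medium was followed by no call among the 8 genes in the fit of all 4 groups with a batch term. That fit in edgeR called 0% of all genes, although the unadjusted p of 4490 of 17983 was under 0.05. By DESeq2 50 genes were called higher and 39 lower, none of them among the 8. The 0% depended on the model: edgeR on these 2 groups alone called 1205 genes higher and 2807 lower of 17187. Without a batch term it called 508 higher and 1555 lower. The calls among the 8 in these fits are given below. CREB3L3 was at 5.20 to 8.69 CPM (median 7.03) in insulin-stimulated cells, against 6.36 to 15.0 CPM (median 10.1) in untreated cells, with a log2 fold change of -0.57 (SE 0.18, adjusted p = 0.0995, edgeR). The 3 COL1A1-low libraries were the 3 highest of the untreated group, at 13.1 to 15.0 CPM, and without them the log2 fold change was -0.11 (SE 0.12). CPT2 was at 17.7 to 20.6 CPM (median 18.7) in stimulated cells, against 17.8 to 22.9 CPM (median 19.9) in untreated cells, with a log2 fold change of -0.13 (SE 0.05, adjusted p = 0.118, edgeR), and -0.04 without the 6 libraries.

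The other 6 genes lay close together in the 2 groups of this medium. PPARA was at 27.2 to 30.8 CPM (median 30.2) in stimulated against 27.3 to 34.5 CPM (median 30.3) in untreated cells. CPT1A was at 43.9 to 53.6 CPM (median 49.4) in stimulated against 44.6 to 63.4 CPM (median 53.3) in untreated cells. ACADVL was at 196 to 243 CPM (median 207) in stimulated against 207 to 270 CPM (median 244) in untreated cells. ACADM was at 48.3 to 60.0 CPM (median 56.6) in stimulated against 47.5 to 67.2 CPM (median 55.5) in untreated cells, and HADHA at 248 to 276 CPM (median 260) in stimulated against 245 to 313 CPM (median 268) in untreated cells. PDK4 had 3 to 28 counts in stimulated against 0 to 38 counts in untreated cells. Their log2 fold changes were between -0.17 for CPT1A and 0.24 for PDK4, all ranges overlapped, and without the 6 libraries 0% of genes were called and 964 had an unadjusted p under 0.05. In this comparison all 24 hepatocyte markers were below 0 (median -0.50) and all 24 stromal markers above 0 (median 0.49) in the 36 libraries, against -0.05 and -0.30 without the 6; their part was not tested.

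The insulin response differed between the media for 3 of the 8 genes. The test of the difference, resistant minus normal medium, gave 0.71 for CREB3L3 (SE 0.24, adjusted p = 0.0265, edgeR), 0.38 for PPARA (SE 0.11, adjusted p = 0.0089) and 0.27 for CPT2 (SE 0.07, adjusted p = 0.00251), so that the fall under insulin was smaller in the resistant medium. Among all genes 6.22% were called in this direction and 23.5% in the other, so that 20.9% of calls were higher, against 39.7% with DESeq2. Without the 6 libraries the differences were 1.58 for CREB3L3, 0.48 for CPT2 and 0.41 for PPARA, ACADM was added at 0.39 (adjusted p = 0.000908), and 12.4% of all genes were called higher and 9.37% lower. Scaled to hepatocyte genes, CREB3L3 kept its call (1.18, adjusted p = 1.99e-09, edgeR) and PPARA and CPT2 did not (adjusted p = 0.212 and 0.0831). FN1 also differed along this contrast, at 8726 to 15310 CPM in stimulated cells of normal and 11440 to 37280 CPM in those of resistant medium. With the COL1A1-low libraries and those with FN1 above 20000 CPM left out, fewer of the 8 were called, as given below. That fit called 1188 of 18622 genes higher and 2263 lower. The part of FN1-high libraries was not tested. Within the batches of 22 and 11 April none of the 8 was called for the difference, with CREB3L3 at 0.88 and 0.41. Of all genes, 3 were higher and 1 lower of 18394 on 22 April, and 90 and 546 of 18397 on 11 April. The batch of 24 May held no stimulated library of the resistant medium. With sets of 3 summed none of the 8 was called either (CREB3L3 0.77, adjusted p = 0.461, edgeR), where 1 of 20446 genes was higher and 4 were lower. The fits of 22 April and of summed sets called too few genes to tell the 8 from others.

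**Figure D3:**
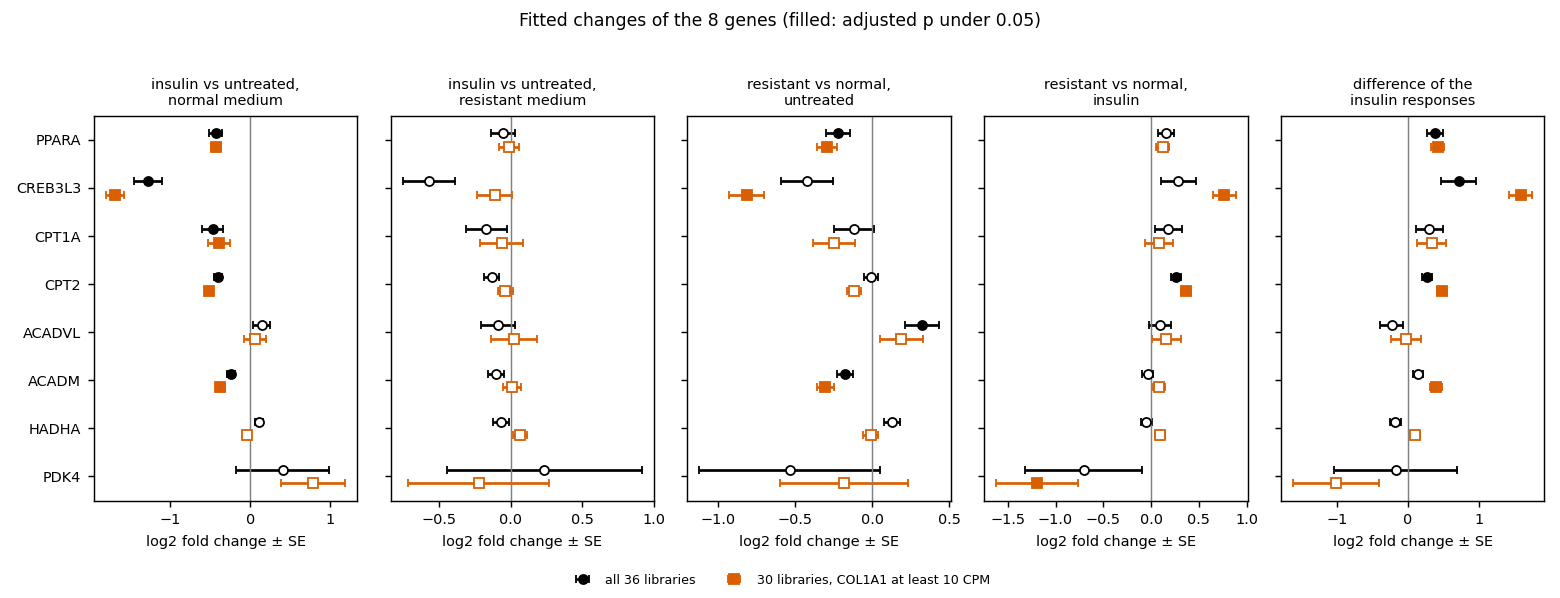
Log2 fold change ± SE of the 8 genes (rows) in 4 comparisons and in the difference of the insulin responses (panels), with black circles for all 36 libraries and orange squares for the 30 libraries with COL1A1 of at least 10 CPM; filled symbols have an adjusted p under 0.05. CREB3L3 lies at -1.28 and -1.69 for insulin in normal medium and at -0.57 and -0.11 in resistant medium.

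The resistant medium by itself changed 3 of the 8 genes in untreated cells. PPARA was lower, by a log2 fold change of -0.22 (SE 0.08, adjusted p = 0.0322, edgeR), at 27.3 to 34.5 CPM in resistant and 29.4 to 41.5 CPM in normal medium. ACADM was lower, at -0.18 (SE 0.05, adjusted p = 0.0121), and ACADVL was higher, at 0.32 (SE 0.11, adjusted p = 0.0325), with 207 to 270 CPM in resistant and 138 to 240 CPM in normal medium. All 3 pairs of ranges overlapped, and 8.62% of all genes were called lower and 13.3% higher. CREB3L3 was at 6.36 to 15.0 CPM in resistant and 11.6 to 19.1 CPM in normal medium, a log2 fold change of -0.42 (SE 0.17) that missed the threshold (adjusted p = 0.0699, edgeR).

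This pattern depended on the 6 libraries for 2 genes. Without them ACADVL was no longer called (0.19, adjusted p = 0.342, edgeR), CREB3L3 was called lower at -0.82 (adjusted p = 1.88e-06), and PPARA (-0.29) and ACADM (-0.30) stayed lower, among 16% of all genes lower and 10.7% higher. In these libraries every resistant value of CREB3L3 and of ACADM lay below every normal one, as did 3.97% of all genes. The 15 of 24 hepatocyte markers called lower in these libraries had a list median of -0.38, against 0.04 in all libraries, and the stromal list had a median of 0.31, against -0.25. With the hepatocyte scaling in place of TMM and without the 6 libraries, 6 of the 8 were called higher, on a median of 0.62 for all genes. That fit called 14133 of all 18230 genes higher and 322 lower. Among the 6 genes were PPARA (0.34), ACADM (0.34) and ACADVL (0.83), so the direction of PPARA and ACADM turns with the scaling. The part of these markers in the result was not tested. Within batches, the 22 and 11 April dates gave no call among the 8, where 272 of 17250 genes were higher and 78 lower on 22 April. On 11 April 0 of 17389 genes were called, so that fit cannot tell the 8 from others. The batch of 24 May gave ACADVL (0.36) higher and ACADM (-0.32) and CREB3L3 (-0.65) lower, among 2562 of 18508 genes higher and 2183 lower. With sets of 3 summed none of the 8 was called (PPARA -0.23, adjusted p = 0.555, edgeR), among 386 of 20446 genes higher and 99 lower.

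Among insulin-stimulated cells the resistant medium left 1 of the 8 genes different. CPT2 was at 17.7 to 20.6 CPM in resistant against 13.8 to 16.7 CPM in normal medium, so that all 9 resistant libraries lay above all 9 normal ones, and its log2 fold change was 0.26 (SE 0.05, adjusted p = 7.46e-05, edgeR). Ranges without overlap were found for 2.02% of all genes in the higher and 10.2% in the lower direction. Of all genes 12% were called higher and 26.3% lower, so that 31.3% of calls were higher, against 46.5% with DESeq2, which called PPARA (0.23) as well as CPT2. Without the 6 libraries CPT2 was at 0.36, CREB3L3 was called higher (0.77, adjusted p = 1.26e-05) and PDK4 lower (-1.19, adjusted p = 0.0307), among 17.8% of genes higher and 18.2% lower. PDK4 rests on 3 to 28 counts in the resistant and, in those libraries, 17 to 44 in the normal group. Within batches CPT2 was called in that of 11 April (0.35) and not in that of 22 April (0.22, adjusted p = 0.261, edgeR), and with sets of 3 summed it was at 0.37 (adjusted p = 0.0588, edgeR). Of all genes, 1251 were called higher and 2073 lower of 17959 on 11 April, and 76 and 41 of 17640 on 22 April. Of the hepatocyte markers 16 of 24 were called lower here (median -0.67) and 23 of 24 stromal markers lay above 0 (median 0.80). The part of this move was not tested. Scaled to hepatocyte genes 7 of the 8 were called higher, on a median of 0.55 for all genes. That fit called 8131 of all 17983 genes higher and 524 lower.

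The 5 genes called lower under insulin in normal medium shared one order of their 4 group means, lowest with insulin in normal medium, then with insulin in resistant medium, untreated in resistant medium and untreated in normal medium. Counted per 100 HADHA counts, CREB3L3, CPT1A and CPT2 kept that order, and in PPARA and ACADM the 2 groups of the resistant medium changed places. The order rested on the COL1A1-low libraries for 2 genes: without them PPARA, CREB3L3 and CPT2 kept it, while CPT1A was lowest with insulin in resistant medium (49.4 CPM, against 50.2 CPM with insulin in normal medium) and ACADM was lowest untreated in resistant medium (53.1 CPM, against 54.1 CPM with insulin in normal medium). CREB3L3 had means of 5.75 ± 2.06 CPM with insulin and 14.2 ± 2.09 CPM without it in normal medium, and 6.98 ± 1.06 CPM with insulin and 10.5 ± 3.08 CPM without it in resistant medium (SD, n = 9 each). PPARA had 26.8 ± 4.77 CPM with insulin and 35.8 ± 3.81 CPM without it in normal medium, and 29.4 ± 1.21 CPM with insulin and 30.6 ± 2.25 CPM without it in resistant medium, where the 3 lower groups lay within their spread of each other. CPT2 stood at 15.4 ± 0.973 CPM with insulin in normal medium, against 18.8 ± 0.898 CPM with insulin in resistant medium and 20.3 ± 1.66 CPM in untreated cells of resistant and 20.4 ± 1.02 CPM in those of normal medium, and the last 2 did not differ beyond their spread. ACADVL had another order and was highest in untreated cells of the resistant medium, at 237 ± 23.4 CPM, and lowest in untreated cells of normal medium, at 189 ± 39.1 CPM, and HADHA had the same 2 groups at its ends, at 276 ± 26.4 and 252 ± 16.1 CPM, with spreads that overlap.

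Likeness between profiles was described over the 12 means of the sets of 3, which share the libraries' composition and scaling. Among the members the highest Pearson r of log2 levels was that of CPT2 and CREB3L3 (0.828), followed by ACADM and CREB3L3 (0.744) and PPARA and CPT2 (0.704), and the lowest was that of PDK4 and CREB3L3 (-0.338). The gene outside the set most like each member, at a mean of at least 5 CPM, was TMPRSS2 for CREB3L3 (r = 0.986), SOX6 for CPT2 (0.971), AK3 for HADHA (0.956), CAMK2D for PDK4 (0.954), BORCS8 for ACADVL (0.951), EIF4EBP2 for PPARA (0.938), METTL3 for CPT1A (0.933) and IL13RA1 for ACADM (0.896).

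Genes next to the members in the pathway moved in both directions under insulin in normal medium. Among all genes 24.9% were called higher and 10.2% lower in this comparison, and the counts of each list are to be read beside these shares. Of 11 tested genes of fatty acid activation and the carnitine shuttle, 3 rose and 3 fell. The 3 that rose were the acyl-CoA synthetases ACSL1 (0.78, adjusted p = 3.32e-06, edgeR), ACSL3 (0.70) and ACSL5 (0.88), and ACSL1 averaged 131 ± 35.1 CPM in stimulated and 76.3 ± 5.28 CPM in untreated cells (SD, n = 9 each). Of 15 tested further genes of mitochondrial beta-oxidation, 3 rose and 4 fell, with ACAD11 at 0.93 and the short- and branched-chain dehydrogenases ACADS (-0.35) and ACADSB (-0.69) lower. The list medians were -0.11 and -0.10, against 0.03 for all genes.

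With TMM scaling, 4 of 13 peroxisomal genes fell and none rose, where 10.2% of all genes were called lower. Scaled to hepatocyte genes 2 were called lower and 1 higher, where 5.69% of all genes were lower and 21.5% higher. Among the 4 were the branched-chain oxidase ACOX2 (-0.43) and the bifunctional enzyme EHHADH (-0.40), and the list median was -0.24. Scaled to hepatocyte genes ACOX2 was not called (-0.32, adjusted p = 0.0735, edgeR). BDH1, which makes hydroxybutyrate in mitochondria, fell as well (-1.67, adjusted p = 3.32e-11, edgeR). It was at 4.70 to 9.56 CPM in stimulated and 19.1 to 29.4 CPM in untreated cells, without overlap.

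Other targets of PPAR-alpha were split. Of 11 tested, 2 rose and 5 fell under insulin in normal medium, a median of -0.27, while without the 6 libraries 1 was higher and 7 were lower. Of all genes 24.9% were called higher and 10.2% lower, and 15.4% and 18.1% without the 6 libraries. The lipid droplet coat PLIN2 rose (1.11, adjusted p = 5.64e-09, edgeR), at 182 ± 39.8 CPM in stimulated and 84.1 ± 14.6 CPM in untreated cells, and the thioesterase ACOT1 (-0.66) and the mitochondrial carrier SLC25A42 (-0.48) fell. Of 11 genes listed with CREB3L3, its targets and relatives, 2 rose and 3 fell, a median of -0.15, while without the 6 libraries none was higher and 5 were lower. The targets APOA5, an activator of lipoprotein lipase (-1.43, adjusted p = 3.27e-07, edgeR), and HAMP, the iron hormone hepcidin (-1.14), fell as CREB3L3 did. APOA5 was at 1.63 to 5.63 CPM in stimulated and 6.05 to 11.4 CPM in untreated cells, without overlap. FGF21, which both lists hold, was among the genes that rose (1.16, adjusted p = 0.0213) at no more than 0.464 CPM in any stimulated library, and it was not called without the 6 libraries (0.60, adjusted p = 0.31, edgeR).

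Of 14 tested partners and coregulators of the receptor, 7 rose and 3 fell, a median of 0.22, but without the 6 COL1A1-low libraries 4 were higher and 5 lower, a median of -0.04. The shares of all genes were 24.9% higher and 10.2% lower, and 15.4% and 18.1% without the 6 libraries. Scaled to hepatocyte genes in all 36 they were 21.5% and 5.69%. The nuclear receptor ESRRA (0.64) and the coactivator PPARGC1B (1.15) rose, and RXRA, the partner with which PPAR-alpha binds DNA, fell (-0.42, adjusted p = 1.26e-07, edgeR). RXRA was at 59.3 to 85.6 CPM in stimulated and 87.3 to 113 CPM in untreated cells, without overlap. Of 8 genes of the pyruvate dehydrogenase complex and its control, 3 rose and 1 fell, while without the 6 libraries 1 was higher and 2 were lower, and scaled to hepatocyte genes 2 were higher and none lower. PDK2, a kinase of the same family as PDK4, fell (-0.77), and the phosphatase PDP2 (0.70) and the subunit DLAT (0.38, and 0.14 with an adjusted p of 0.0555 without the 6 libraries) rose. With the 30 libraries alone, 9 of 15 beta-oxidation and 7 of 13 peroxisomal genes were lower, where 18.1% of all genes and 17 of 24 hepatocyte markers were. Scaled to hepatocyte genes in all 36, 1 beta-oxidation gene was higher and 1 lower, and RXRA (-0.26), PDK2 (-0.53), SLC25A42 (-0.32) and ACADS (-0.23) were not called. In the 30 libraries the synthetases ACSL1, ACSL3 and ACSL5 stayed higher at 0.43, 0.36 and 0.44.

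In untreated cells, the resistant medium raised the fatty acid binding protein FABP1 (1.03, adjusted p = 4.37e-06, edgeR), the pantetheinase VNN1 (2.05) and the droplet protein CIDEC (1.20). They were 3 of the 4 PPAR-alpha targets of 11 that were called higher, while 2 were called lower. Of all genes 13.3% were called higher and 8.62% lower in this comparison, and 10.7% and 16% without the 6 libraries. FABP1 averaged 312 ± 87.8 CPM in resistant and 153 ± 23.5 CPM in normal medium, and VNN1 averaged 19.3 ± 6.62 CPM in resistant and 4.64 ± 0.664 CPM in normal medium (SD, n = 9 each). ACSL1 (0.68), ACSL5 (0.81) and the carnitine transporter SLC22A5 (0.36) were the 3 genes of the entry list called higher, with none lower, and SLC22A5 was not called without the 6 libraries (0.15). Of the beta-oxidation list 3 of 15 fell, ACADSB (-0.97), HADH (-0.46) and ACAA2 (-0.20), and 1 rose. Without the 6 libraries 4 of this list were lower and none higher, but scaled to hepatocyte genes 5 were higher and 1 was lower. HADH was then at -0.13 and ACAA2 turned to 0.12, neither called. With this scaling 5465 of all 17983 genes were called higher and 312 lower. BDH1 fell (-1.23), as did PPARGC1A (-1.27), SIRT1 (-0.51) and RXRA (-0.45), the 3 coregulators or partners called lower of 14, while 3 others rose. Without the 6 libraries 2 of the 14 were higher and 5 lower, and scaled to hepatocyte genes 6 were higher and 1 lower, with SIRT1 (-0.16) and RXRA (-0.09) not called. Under insulin in resistant medium no gene of the 7 lists described here, nor BDH1, was called in the fit of all 36 libraries with a batch term. That fit called 0 of all 17983 genes, so it shows nothing particular to these lists.

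**Figure D4:**
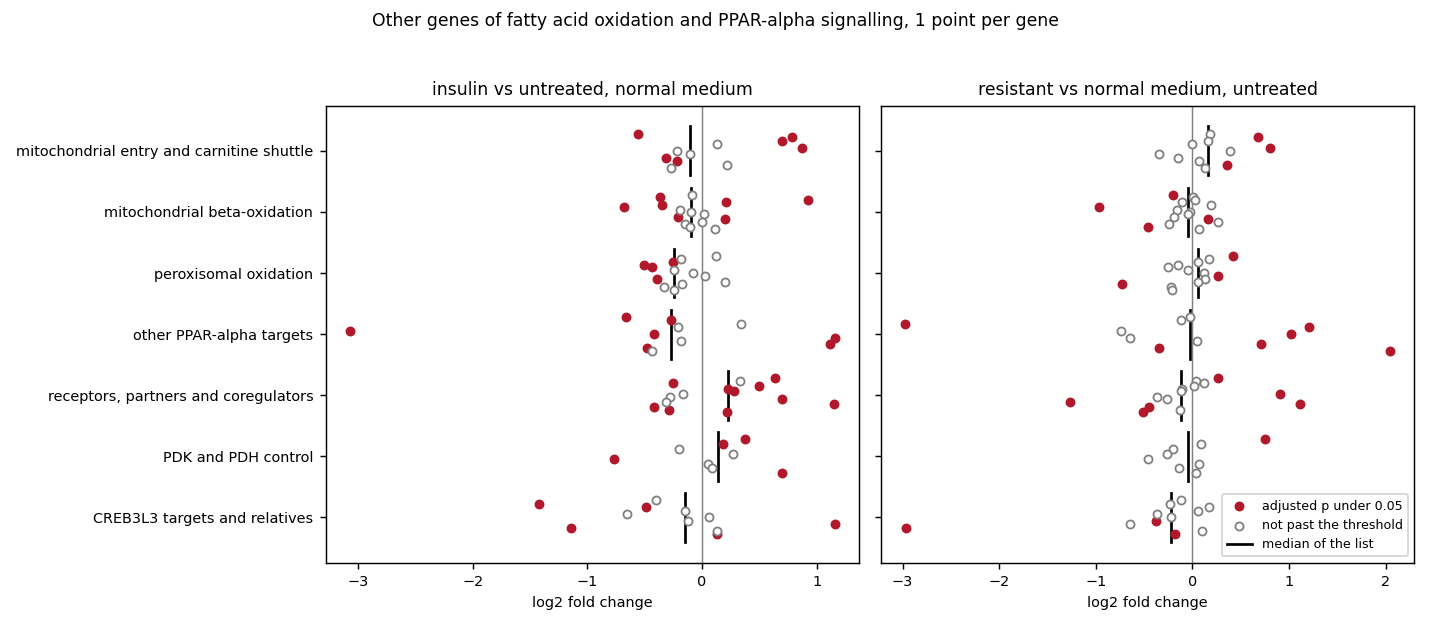
Log2 fold change (x axis) of each further gene of 7 lists (rows, 1 point per gene, with a black line at the list median) for insulin against untreated cells in normal medium (left) and for resistant against normal medium in untreated cells (right); red points have an adjusted p under 0.05. On the left the list of other PPAR-alpha targets has the lowest median, at -0.27, and the receptor and coregulator list the highest, at 0.22.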

How the data were processed

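Poly-A RNA-seq libraries of 36 cultures were made with a strand-specific kit, per the labels' protocols, and the labels call the replicates biological. The deposited table holds an expected count for each of 57771 Ensembl genes and library, made with STAR and Salmon on GRCh37, per the submitters' processing notes; no role, version or setting of these is stated there. Of the values 15.5% were not whole, and all were rounded. Symbols from the reference table matched 51994 genes (90.0%). Library totals were 26613311 to 116763869 counts, and no 2 libraries agreed within sampling noise (lowest chi-square per gene 4.21).

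Groups came from the sample titles. edgeR 4.0.16 in R 4.3.3 (filterByExpr, TMM, robust quasi-likelihood test) was fitted to all 36 libraries with group and batch date as terms, with Benjamini-Hochberg adjustment over 17983 genes and calls at an adjusted p under 0.05. The SE of a log2 fold change was taken from its F statistic. CPM were computed from counts and TMM factors, and those of cell type markers, COL1A1, FN1 and IGF1R from counts and library totals only. The same fit was tested on simulated data with independent libraries. These held no sets of 3, batch effect or shift in composition, so the test cannot show whether the p-values hold for these libraries. The labels give 3 batch dates, which hold 2 stimulated and 2 untreated libraries of normal medium and 6 stimulated and 2 untreated of resistant medium on 11 April, 5, 4, 3 and 4 on 22 April, and 2, 3, 0 and 3 on 24 May.

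In the groups of normal medium all 9 same-numbered pairs deviated together (r 0.223 to 0.54, each over 0.1), a check made on the data. Since libraries of a set of 3 move together, it cannot tell pairing by number from likeness of whole sets. Alternatives were DESeq2 1.42.0, no filter, averaged TMM factors, factors from 20 hepatocyte genes, leaving out the 6 libraries with COL1A1 below 10 CPM, also with the libraries with FN1 above 20000 CPM left out, no batch term, a replicate block, the groups compared alone, each batch alone, and sets of 3 replicates summed. Ratios to HADHA were chosen after seeing the data. The members and all gene lists were chosen with earlier results of these data known. Beside the members, the genes named were up to 3 of each list per comparison with the smallest adjusted p and a mean of 1 CPM or more, and the gene most like each member among those with 5 CPM or more; FGF21 and the genes under other observations fall outside this rule and were chosen after their values were seen. Promoter windows are from RefSeq (GRCh38.p14) and were not set beside coordinates of the count table. Some genes of these pathways are not reported here. PDK4 intervals and floors cover counting error only.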

Additional observations from a re-analysis of the deposited data

Results flagged for a closer look

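CREB3L3 in replicate 5 of the untreated cells in normal medium, at 19.1 CPM, stood farther above the other 8 libraries of its group than a test for single outlying samples allows. It was the only such case among 32 groups of values, of which chance gives about 5%.

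The insulin response in resistant minus normal medium differed, by the test of the difference in edgeR, for 3 genes: 0.38 for PPARA, 0.27 for CPT2 and 0.71 for CREB3L3 on the log2 scale. In normal medium the response of PPARA was -0.43, of CPT2 -0.40 and of CREB3L3 -1.28, and in resistant medium it was -0.05, -0.13 and -0.57, so that all 6 values were below 0.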

How the results depend on the processing

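The number of the 8 genes called changed with the setting, and the cause was not tested. For insulin in normal medium it was 5, and 1 with factors from hepatocyte genes, 3 on 22 April, 0 on 11 April, 2 on 24 May and 3 with sets summed. For insulin in resistant medium it was 0, and CREB3L3 alone was called without a batch term (1, at -0.59) and with the replicate block (1, at -0.66), while the 2 groups alone gave 2. For the medium in untreated cells it was 3, and 1 without a filter, 6 with hepatocyte factors and the 6 libraries left out, 1 with the groups alone and 0 on 22 April, on 11 April and with sets summed. For the medium in stimulated cells it was 1, and 2 with DESeq2, without a filter and with averaged TMM, 7 with hepatocyte factors, 3 without the 6 libraries, 5 with both, 2 without FN1-high libraries too, 0 on 22 April, 2 on 11 April and 0 with sets summed. For the difference of responses it was 3, and 1 with hepatocyte factors, 1 without FN1-high libraries too, and 0 on 22 April, on 11 April and with sets summed. Calls over all genes moved with the setting as well. With hepatocyte factors and the 6 libraries left out, 14133 of 18230 genes were higher for the medium in untreated cells. On 11 April 0 of 17208 genes were called for insulin in normal medium, and 0 of 17389 for the medium in untreated cells.

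Fold changes turned in sign as follows (log2). With hepatocyte factors, insulin in resistant medium gave PPARA 0.34, CPT1A 0.25, CPT2 0.28, ACADVL 0.33, ACADM 0.31 and HADHA 0.35; the medium gave PPARA 0.11, CPT1A 0.20, CPT2 0.32 and ACADM 0.15 in untreated and ACADM 0.56 and HADHA 0.56 in stimulated cells; the difference gave ACADVL 0.03 and HADHA 0.11. With the 6 libraries also left out, insulin in normal medium gave PPARA 0.05, CPT1A 0.10 and ACADM 0.10, and in resistant medium PPARA 0.05, CPT2 0.02, ACADVL 0.08, ACADM 0.06, HADHA 0.13 and PDK4 -0.13; the medium gave PPARA 0.34, CPT1A 0.40, CPT2 0.52, ACADM 0.34 and PDK4 0.46 in untreated and ACADM 0.30 and HADHA 0.32 in stimulated cells; the difference gave CPT1A -0.12 and ACADM -0.04. With TMM and the 6 left out, HADHA was -0.04 for insulin in normal medium, -0.01 for the medium in untreated cells and 0.11 for the difference; insulin in resistant medium gave ACADVL 0.03, ACADM 0.01, HADHA 0.07 and PDK4 -0.22, and the medium in stimulated cells ACADM 0.09 and HADHA 0.09. With FN1-high libraries left out as well, ACADVL was -0.05 for insulin in normal medium, HADHA 0.07 and PDK4 -0.56 in resistant medium, PDK4 0.36 for the medium in untreated cells, CPT1A 0.00 and HADHA 0.08 in stimulated cells, and HADHA 0.05 for the difference.

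For the medium in stimulated cells, ACADM and HADHA were 0.04 and 0.03 with DESeq2, 0.08 and 0.07 without a filter, 0.03 and 0.02 with averaged TMM, 0.04 and 0.02 with the groups alone and 0.11 and 0.05 with sets summed, and ACADM was 0.01 without a batch term. HADHA under insulin in normal medium was -0.02 without a filter and -0.03 with sets summed. PDK4 was 0.03 for the difference with DESeq2, and for insulin in resistant medium -0.09 without a batch term and -0.10 with sets summed. On 22 April HADHA was 0.00 for insulin in normal medium and 0.03 for the medium in stimulated cells, CPT2 0.00 for the medium in untreated cells and PDK4 0.28 for the difference. On 11 April ACADVL was -0.25 for insulin in normal medium, CPT2 0.11 and ACADM 0.03 for the medium in untreated and stimulated cells, and ACADVL 0.08 and PDK4 0.68 for the difference. On 24 May HADHA and PDK4 were -0.04 and -1.21 for insulin in normal medium and 0.00 and 0.21 for the medium in untreated cells.

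With the replicate block, ACADVL was called for insulin in normal medium (0.16) and for the difference (-0.27), PDK4 turned to 0.24 for the difference, and no other call of the 8 changed beyond that of CREB3L3 above; over all genes, insulin in resistant medium then had 911 calls higher and 1763 lower. The numbers are not shown to pair libraries: 30 of 54 pairs over all groups had r over 0.1, and 2 of 36 libraries correlated best with their own number. PDK4 had too few counts for the test in the groups of resistant medium alone and in 2 of the within-batch fits. The groups alone cannot give the difference, and 24 May cannot give comparisons that need stimulated cells of resistant medium.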

Other observations

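Other PPAR-alpha targets with low levels moved by large factors and were chosen after their values were seen. CYP8B1, the sterol hydroxylase of cholic acid synthesis, averaged 0.177 ± 0.132 CPM in insulin-stimulated and 1.45 ± 0.209 CPM in untreated cells of normal medium (SD, n = 9 each), a log2 fold change of -3.07. ANGPTL4, an inhibitor of lipoprotein lipase, was lower in resistant than in normal medium, at a log2 fold change of -2.97 in untreated (adjusted p = 0.022, edgeR) and -3.24 in stimulated cells (adjusted p = 0.0153, edgeR). Without the 6 COL1A1-low libraries it was not called in untreated cells (-2.48, adjusted p = 0.0704, edgeR) and was at -4.09 in stimulated cells. In resistant medium ANGPTL4 ranged over 0.544 to 1.59 CPM in stimulated and 0.349 to 1.24 CPM in untreated cells. In normal medium it ranged over 0.235 to 29.5 CPM in stimulated and 0.537 to 22.8 CPM in untreated cells.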
